A study of Mus musculus with 2 samples.

Results

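The genes described here are 10 members of the circadian clock and of the cold-inducible RNA-binding proteins: Cirbp, Rbm3, Arntl, Per1, Per2, Nr1d1, Nr1d2, Dbp, Tef and Bhlhe40. They were taken by gene symbol from the 27998 genes that both libraries list, and each symbol occurs once. The set was chosen by a lower Cirbp level per class in these same libraries, to ask whether clock output genes shift with it, so the Cirbp values are a description and support nothing by themselves. The non-parenchymal fraction of the liver, meaning immune, endothelial and stromal cells without the hepatocytes, were profiled by 10x droplet sequencing, with 1 library of each genotype. PKM2FL/FL stands for mice with a floxed Pkm gene, and PKM2ΔMAC for mice named for a macrophage loss of PKM2, the pyruvate kinase isoform encoded by Pkm. Both genotypes had received MCD diet for 8 weeks, a feed short of methionine and choline that produces fatty, inflamed liver, so no group on a control diet enters. The sources used here give neither the Cre driver nor the number of mice per library, their age or the hour of the day at which livers were taken.

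The clock is a feedback loop of transcription. ARNTL (also called BMAL1) and CLOCK bind E-boxes and switch on the Per, Cry, Nr1d1, Nr1d2, Dbp and Tef genes, PER and CRY proteins then block them, and the REV-ERB receptors made from Nr1d1 and Nr1d2 repress Arntl through ROR elements. DBP and TEF carry the rhythm to D-box genes, and BHLHE40 (DEC1) represses E-box genes. CIRBP and RBM3 bind RNA, rise when cells are mildly cooled and follow the daily rhythm of body temperature. In the liver these genes cycle strongly and follow feeding.

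Short stretches upstream of 3 members are shown because they carry the letters through which the loop is known to act. RefSeq windows of 250 bases before a start (GRCm38.p6) were found for 7 of the 10 members, 11 windows in all, and searched on both strands for the E-box CACGTG, the D-boxes TTATGTAA and TTACGTAA, the ROR core AGGTCA and the CRE TGACGTCA. Capitals mark the motif, and each stretch overlaps no annotated exon of GENCODE M21. The Per1 stretch is chr11:69098763-69098812 on the + strand, the Tef stretch chr15:81811256-81811305 on the + strand and the Nr1d2 stretch chr14:18239154-18239203 on the - strand.
Per1, E-box: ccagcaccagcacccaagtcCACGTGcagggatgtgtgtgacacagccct
Tef, E-box: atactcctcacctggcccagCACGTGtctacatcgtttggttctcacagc
Nr1d2, ROR core: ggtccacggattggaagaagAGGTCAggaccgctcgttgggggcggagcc
Per1 also held a ROR core, and a further Tef window a further E-box. None of these motifs was present in the windows of Cirbp, Arntl, Nr1d1 and Dbp. Over 32851 windows of the same length, 6.02% held the E-box, 0.931% a D-box, 14% the ROR core and 1.55% the CRE, and a match is a description of letters, not a bound site.

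After filtering, 9529 cells of the PKM2FL/FL library and 8547 of the PKM2ΔMAC library remained, with median depths of 4392 and 3719 UMIs (unique molecular identifiers, each 1 captured transcript). Marker genes placed 88.8% and 88.5% of them in 14 classes, of which 8 held at least 100 cells in each library and were compared, with 2 gates among CD8 T cells beside them; a class name such as T-like means only that a cell passed that gate. Levels are CPM, counts scaled to 1000000 UMIs of the class, ratios are PKM2ΔMAC over PKM2FL/FL, and a gene counted as lower or higher at 1.5-fold or more where the class held at least 50 of its UMIs. With 1 library per genotype there was no test, and the 95% intervals in parentheses cover counting error only. All classes of a genotype come from the same library, so a like ratio in several classes is not a repeat of the experiment. The targeted gene Pkm was lower in Kupffer-like cells (ratio 0.368, 0.233 to 0.567), classical monocyte-like cells (0.568, 0.513 to 0.628) and neutrophil-like cells (0.457, 0.415 to 0.503). It was also below equal, within 1.5-fold, in the 5 other compared classes, from 0.713 (0.668 to 0.76) in T-like to 0.813 (0.703 to 0.938) in conventional dendritic-like cells. Its 3' tags may lie outside the deleted part, so it does not check the label. The libraries share 17 barcodes.

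Cirbp (ENSMUSG00000045193, chromosome 10, 80165985 to 80172786, + strand) encodes a cold-inducible RNA-binding protein and was lower in the PKM2ΔMAC library in 7 of the 8 compared classes. Over all cells it had 10971 UMIs (219 CPM) in PKM2FL/FL and 4131 UMIs (102 CPM) in PKM2ΔMAC, a ratio of 0.466 (0.45 to 0.483). Cells that passed no marker gate gave 0.416 (0.368 to 0.469). They may include cells of the named classes in which too few markers were detected.

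Among lymphocytes the gap was widest in T-like cells, with 2176 UMIs at 213 CPM (205 to 223) against 655 UMIs at 71.9 CPM (66.5 to 77.7), a ratio of 0.337 (0.308 to 0.368). Relative to the median of all genes in that class, which lay at -0.15 on the log2 scale, the log2 ratio of -1.57 became -1.42. Both CD8 gates lay at a like ratio, 0.317 (0.269 to 0.373) in naive-like and 0.326 (0.249 to 0.421) in activated-like cells. The naive-like CD8 gate went from 368 to 564 cells, the activated-like CD8 gate from 237 to 153 and the activated-like CD4 gate from 190 to 56, where the ratio was 0.569 (0.408 to 0.779). A cluster of mostly T-like cells went from 394 to 59 cells, with a ratio of 0.455 (0.316 to 0.638). The part of these changes in the T-like ratio was not tested. NK- or ILC1-like cells, the innate cytotoxic lymphocytes of the liver, read 234 CPM (227 to 242) and 99.8 CPM (94.1 to 106), a ratio of 0.426 (0.398 to 0.455). Beside this, 10.8% and 6.32% of the cells in that gate held 2 or more T markers; with every cell holding a T marker UMI left out, an alternative chosen after seeing the data, the log2 ratio was -1.17, beside -1.23 for the whole gate. B-like cells read 239 CPM (228 to 250) and 149 CPM (141 to 159), a ratio of 0.626 (0.58 to 0.676).

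Myeloid and dendritic cells showed the same direction. Cirbp in neutrophil-like cells went from 263 CPM (241 to 287) to 125 CPM (110 to 142), a ratio of 0.476 (0.406 to 0.557), and relative to the class median of all genes (-0.32, log2) the log2 ratio of -1.07 became -0.75. In classical monocyte-like cells Cirbp went from 136 CPM (123 to 150) to 51.4 CPM (41 to 63.8), a ratio of 0.378 (0.295 to 0.48). Conventional dendritic-like cells read 161 CPM (144 to 180) and 75 CPM (61.8 to 90.1), and plasmacytoid dendritic-like cells 251 CPM (224 to 280) against 119 CPM (104 to 135), ratios of 0.465 (0.372 to 0.578) and 0.474 (0.397 to 0.564). In each of these classes the library intervals did not overlap. With cells thinned to 1000 UMIs the log2 ratio was -0.62 in monocyte-like and -0.54 in plasmacytoid dendritic-like cells, and the latter no longer reached 1.5-fold.

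Kupffer-like cells, the resident macrophages of the liver and a cell type the PKM2ΔMAC name points to, were the exception. They held 33 and 28 Cirbp UMIs, 174 CPM (120 to 244) against 141 CPM (93.7 to 204), and the ratio of 0.811 (0.472 to 1.38) includes equal levels as well as the ratios of B-like, neutrophil-like and plasmacytoid dendritic-like cells. Their haemoglobin transcripts, summed over 4 genes, went from 4621.3 to 10.1 CPM. In PKM2FL/FL each of the 4 genes was read in no more than 5 of the 123 cells, and the part of red cell RNA in the Cirbp values was not tested. Stromal and vascular classes, under 100 cells in a library, gave gate ratios whose intervals include equal: endothelial-like 1.09 (0.697 to 1.7), mesothelial-like 0.913 (0.581 to 1.41) and stromal-like 0.789 (0.515 to 1.23). A cluster of mostly mesothelial-like cells, 49 and 54 cells, held more Cirbp UMIs than that gate, 155 and 69, and gave 352 against 221 CPM (0.628, 0.466 to 0.839), which is past 1.5-fold. Endothelial-like cells also differed in depth, with median UMIs of 2044 and 924. Whether these ratios differ from those of lymphocytes was not tested.

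**Figure D1:**
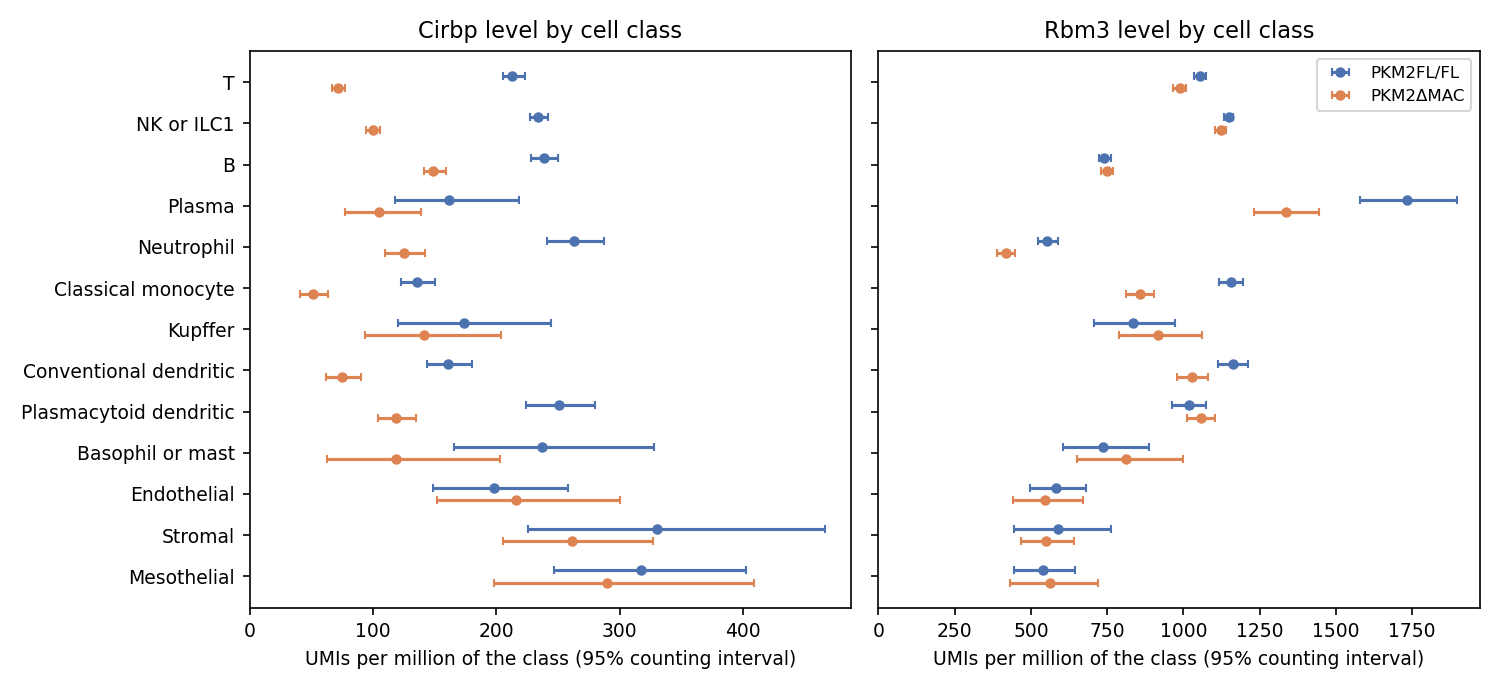
Level of Cirbp (left) and Rbm3 (right) in CPM of the class, for each class with at least 20 cells in each library; points are the 1 library per genotype and bars are exact Poisson 95% intervals. The Cirbp points of the PKM2ΔMAC library lie left of the PKM2FL/FL points from T to classical monocyte and in both dendritic classes, while most Rbm3 pairs lie close together.

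The share of cells with a Cirbp UMI followed the level. In T-like cells it was 66.2% (63.9 to 68.5) against 34.7% (32.1 to 37.2), and after thinning each cell to 1000 UMIs 20.7% (18.7 to 22.7) against 7.54% (6.2 to 9.06). In NK- or ILC1-like cells it was 67.8% against 39%, thinned 21% (19.5 to 22.5) against 10.1% (8.81 to 11.5). B-like cells gave 52.2% against 34.3%, thinned 21.4% (19.7 to 23.2) against 14.5% (13.1 to 16). These 3 differences were thus still there at equal depth. In classical monocyte-like cells 66% and 32.7% became 9.51% (6.55 to 13.2) and 7.18% (3.98 to 11.8) when thinned, and the difference was not detectable at that depth. Thinning left out 6 and 9 T-like, 30 and 136 B-like and no more than 4 monocyte-like cells of a library. Cirbp is read in every class, so no class offers a level of free RNA alone for comparison.

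**Figure D2:**
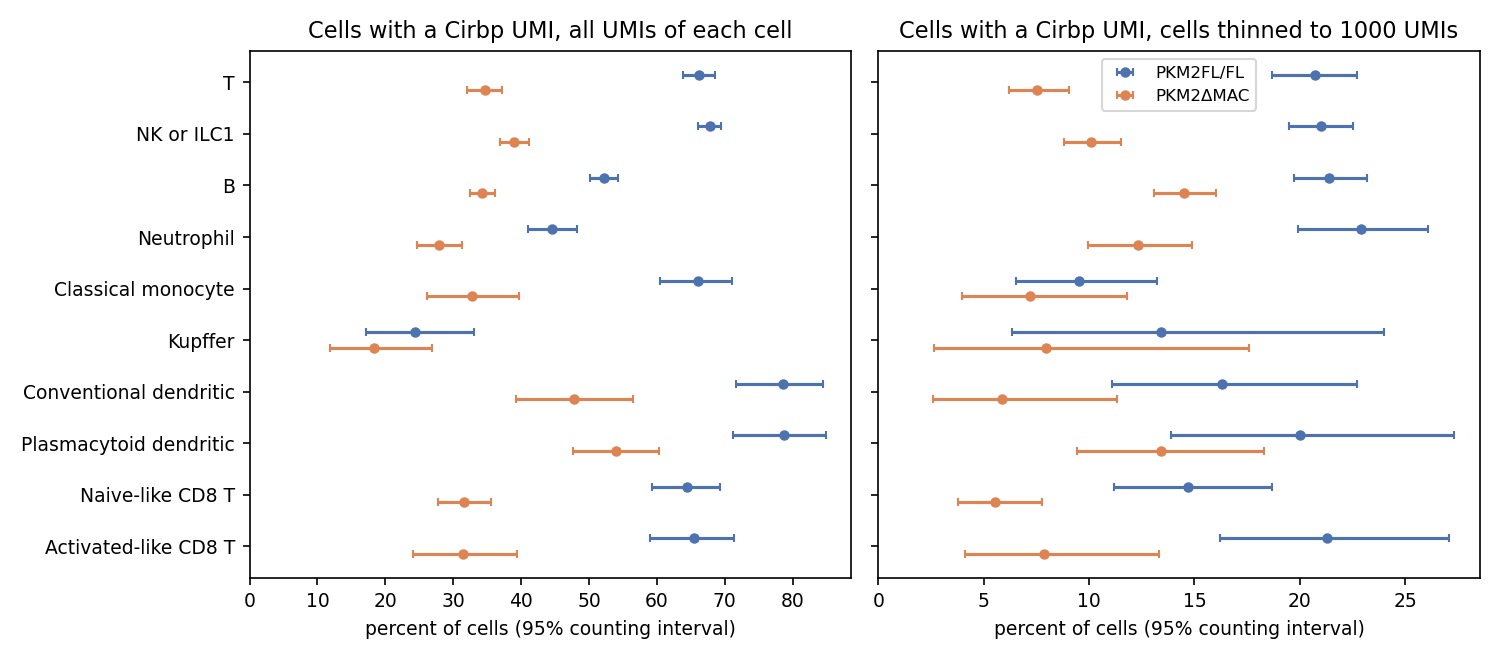
Percent of cells with at least 1 Cirbp UMI by class and library, with all UMIs of each cell (left) and with cells thinned to 1000 UMIs (right); bars are exact binomial 95% intervals over cells of 1 library. The pairs of T, NK or ILC1, B and neutrophil stay apart on both sides, while the thinned monocyte, Kupffer and both dendritic pairs of intervals overlap.

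Leiden clusters, made without the 10 genes, gave a finer view. Of 23 clusters, 14 held at least 100 cells in each library and 50 Cirbp UMIs, and Cirbp was lower in 12 of these, with ratios from 0.263 to 0.883. The lowest was a cluster of mostly T-like cells, with 1127 and 280 UMIs, 209 against 55 CPM. A cluster of mostly B-like cells gave 0.744 (0.668 to 0.828) and the cluster of Kupffer-like cells 0.883 (0.503 to 1.55), the 2 that stayed under 1.5-fold.

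**Figure D3:**
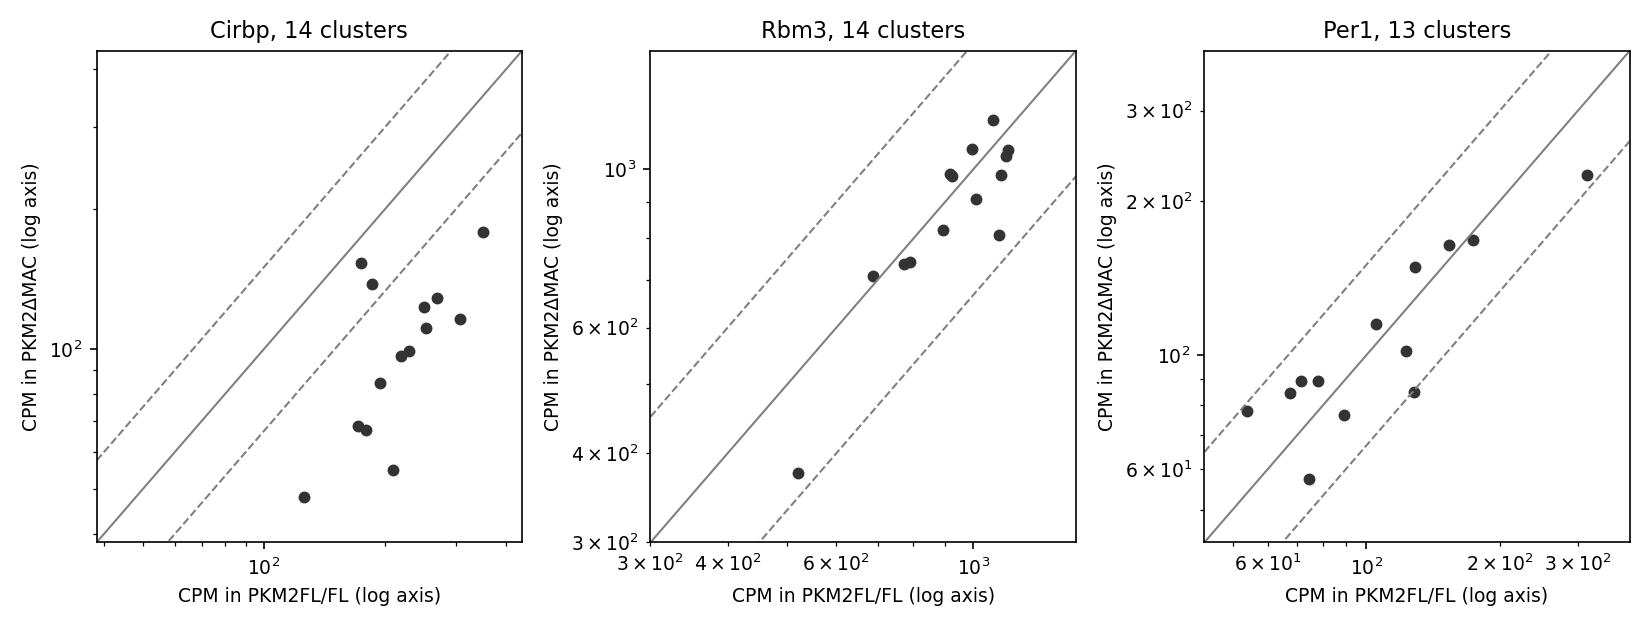
CPM of Cirbp, Rbm3 and Per1 in the PKM2FL/FL library (x, log axis) and in the PKM2ΔMAC library (y, log axis), 1 point for each cluster with 100 cells and 50 UMIs; the solid line marks equal levels and the dashed lines 1.5-fold. Cirbp points lie below the lower dashed line in 12 of 14 clusters, Rbm3 points lie between the dashed lines in all 14, and 1 of 13 Per1 points lies just outside.

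Set against other genes, 904 genes had 50 UMIs in each of the 8 classes, and 3 of them (0.332%) were lower in 7 or more: Cirbp, Nfkbia and Gm42418. The cutoff of 7 is the count of Cirbp itself, a gene chosen for its lower level in these libraries. Its place in this count and in the ranking that follows was thus set in advance and supports nothing. Among the 801 left without mitochondrial, ribosomal protein, haemoglobin, sex-linked, Gm and Rik genes, Cirbp had the lowest median log2 ratio, at -1.09, and Rbm3 stood at place 314 with -0.06. Gm42418, a predicted gene known to overlap ribosomal RNA sequence and often read as a sign of library preparation, was lower in 8 of 8 classes, with log2 ratios from -1.88 in Kupffer-like to -1.29 in NK- or ILC1-like cells. It went from 1955.9 to 753 CPM in T-like cells and from 1949.7 to 529 CPM in Kupffer-like cells, where Cirbp was not lower by 1.5-fold. Its part in the Cirbp difference was not tested.

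Rbm3 (ENSMUSG00000031167, chromosome X, 8138975 to 8145880), the partner of Cirbp in the cold response, did not share the lower level: it was within 1.5-fold in 8 of 8 classes. Over all cells Rbm3 had 50549 and 37963 UMIs, 1010.1 against 939 CPM, a ratio of 0.93 (0.918 to 0.942). T-like cells had 1054.2 against 988 CPM (0.937, 0.911 to 0.963), NK- or ILC1-like cells 1147.9 against 1121.5 CPM (0.977, 0.955 to 0.999) and B-like cells 741 against 749 CPM (1.01, 0.974 to 1.05). Relative to the class medians the T-like and NK- or ILC1-like log2 values turned to 0.05 and 0.03. The lowest ratios were in classical monocyte-like cells (1155.9 against 856 CPM, 0.74, 0.695 to 0.789) and neutrophil-like cells (554 against 419 CPM, 0.755, 0.688 to 0.829). The cells with a Rbm3 UMI were 97.3% and 96.5% of T-like cells, or 61.2% and 57.8% when thinned. In all 14 clusters compared, the Rbm3 ratio lay between 0.719 and 1.09.

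Arntl, the activator of the loop, was measured in 3 compared classes and was within 1.5-fold in each. T-like cells had 179 and 139 UMIs, 17.6 against 15.3 CPM (0.87, 0.692 to 1.09). NK- or ILC1-like cells had 15.5 against 18.8 CPM (1.21, 1.01 to 1.46) and B-like cells 13.2 against 17.9 CPM (1.36, 1.04 to 1.78), both intervals above equal levels. In thinned cells the log2 values were -0.32 in NK- or ILC1-like and 0.90 in B-like cells, so the direction in the first turned. Its partner Clock had ratios of 1.11 (0.926 to 1.33), 1.12 (0.954 to 1.3) and 1.27 (1.06 to 1.53) in the same classes.

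Per1, a repressor of the loop that also answers to cAMP and glucocorticoid, was within 1.5-fold in all 7 classes that measured it, with 107 against 111 CPM over all cells (1.04, 0.999 to 1.08). Its direction was not the same in all lineages. Lymphocyte ratios lay above 1, with 87.9 against 95.7 CPM in T-like (1.09, 0.991 to 1.2), 108 against 119 CPM in NK- or ILC1-like (1.1, 1.02 to 1.18) and 106 against 123 CPM in B-like cells (1.16, 1.05 to 1.28). Neutrophil-like cells, where Per1 was highest in both libraries, read 309 CPM (285 to 335) and 219 CPM (198 to 241), a ratio of 0.707 (0.622 to 0.802); its log2 ratio of -0.50 became -0.18 relative to the median of all genes in that class. Conventional and plasmacytoid dendritic-like cells had ratios of 0.772 (0.599 to 0.991) and 0.765 (0.611 to 0.958), and monocyte-like cells 0.891 (0.692 to 1.14). In cells thinned to 1000 UMIs the sign turned in T-like (-0.05), NK- or ILC1-like (-0.07), conventional (0.22) and plasmacytoid dendritic-like cells (0.11, all log2). These values rest on fewer UMIs and are given without intervals, so the counting error of the turned signs was not assessed.

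Per2, the second period repressor, had 205 and 200 UMIs over all cells and was measured in only 2 compared classes. Neutrophil-like cells had 39 UMIs at 20 CPM (14.2 to 27.4) against 69 UMIs at 36.8 CPM (28.6 to 46.6), which counted as higher (ratio 1.84, 1.22 to 2.8). NK- or ILC1-like cells had 84 and 44 UMIs (0.785, 0.532 to 1.14). Per1 and Per2 thus lay on opposite sides of equal in neutrophil-like cells, where 26.4% of genes counted as lower.

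Nr1d1, which encodes REV-ERB alpha, was highest in CPM in mesothelial-like and stromal-like cells, while T-like cells held the most of its UMIs. Mesothelial-like cells had 41 and 17 UMIs, 189 against 154 CPM (0.816, 0.435 to 1.47), and stromal-like cells 114 against 115 CPM (1.01, 0.498 to 2.22). Over all cells Nr1d1 had 216 and 294 UMIs, 4.32 against 7.27 CPM (1.69, 1.41 to 2.02). The part of changed class sizes in that ratio, such as 22 and 68 stromal-like cells, was not tested. Of the compared classes only T-like cells measured Nr1d1, with 62 UMIs at 6.08 CPM (4.66 to 7.79) against 102 UMIs at 11.2 CPM (9.13 to 13.6), which counted as higher (1.84, 1.33 to 2.57). In the clusters, 60 and 97 of its UMIs fell in 1 cluster of mostly T-like cells of 343 and 413 cells, where the ratio was 1.39 (1 to 1.96), under 1.5-fold. The lipid-associated macrophage gate gave Nr1d1 18 and 43 UMIs from 32 and 10 cells, but in the PKM2ΔMAC library those cells read 0 Trem2 CPM, against their label. Alb, a hepatocyte transcript, had 584 and 637 UMIs in this gate. The Thra gene overlaps Nr1d1 on the opposite strand, and Sphk2 overlaps Dbp in the same way. Whether counting used strand is not given in the sources used here.

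Nr1d2, which encodes REV-ERB beta, was within 1.5-fold in the 3 classes that measured it. T-like cells had 266 and 268 UMIs, 26.1 against 29.4 CPM (1.13, 0.949 to 1.34). NK- or ILC1-like cells had 23.5 against 25.8 CPM (1.1, 0.944 to 1.28) and B-like cells 24.4 against 21.5 CPM (0.879, 0.705 to 1.1). All 3 intervals include equal levels, while the ratio over all cells was 1.1 (1.01 to 1.2). Of 9 clusters compared, Nr1d2 counted as higher in 2, a cluster of mostly T-like cells (1.75, 1.08 to 2.78) and one of mostly NK- or ILC1-like cells (1.54, 0.944 to 2.54).

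Dbp and Tef, the D-box activators through which the loop reaches its outputs, were likewise within 1.5-fold in the main classes. Over all cells their ratios were 1.19 (1.04 to 1.37) and 0.936 (0.852 to 1.03). Dbp had 118 and 117 UMIs in T-like cells, 11.6 against 12.8 CPM (1.11, 0.852 to 1.45). It had 9.67 against 8.91 CPM in NK- or ILC1-like cells (0.921, 0.712 to 1.19) and 10.2 against 9.33 CPM in B-like cells (0.915, 0.649 to 1.29). Tef had 15.5 against 15.3 CPM in T-like (a log2 ratio of -0.02, -0.36 to 0.32), 26.7 against 24.9 CPM in NK- or ILC1-like (0.931, 0.8 to 1.08) and 28.2 against 26.1 CPM in B-like cells (0.927, 0.757 to 1.13). In thinned cells Dbp in NK- or ILC1-like cells (-0.77) and Tef in T-like cells (0.62, both log2) passed 1.5-fold, on fewer UMIs and without intervals. In 1 cluster of mostly T-like cells Dbp had 22 and 44 UMIs and counted as higher (1.82, 1.07 to 3.19). Plasmacytoid dendritic-like cells had 31 and 33 Tef UMIs (0.706, 0.419 to 1.19). The naive-like CD8 gate stood apart, with 13 and 43 Dbp UMIs, 4.88 against 10.2 CPM (2.08, 1.1 to 4.23), and 25 and 60 Tef UMIs, 9.39 against 14.2 CPM (1.51, 0.934 to 2.52). Both counted as higher there, on few molecules and, for Tef, with an interval that includes equal. In this gate the repressor Ciart (12 and 43 UMIs, 2.26, 1.17 to 4.71) was also higher. So was the output gene Tspan4 (14 and 67 UMIs, 3.02, 1.68 to 5.81). The 3 other repressors and 6 other output genes measured there were within 1.5-fold, and 3.17% of all genes were higher.

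Bhlhe40, a repressor of E-box genes that also serves T cell and macrophage activation, was the only other member that counted as lower in a compared class. T-like cells had 1601 UMIs at 157 CPM (149 to 165) against 758 UMIs at 83.2 CPM (77.4 to 89.4), a ratio of 0.53 (0.486 to 0.578). The CD8 gates within them lay nearer to equal, at 1.02 (0.709 to 1.48) in naive-like cells, where the gene read 18.8 and 19.2 CPM, and at 0.716 (0.587 to 0.87) in activated-like cells, with 221 and 158 CPM. The part of the changed gate sizes in the T-like ratio was not tested; a cluster of mostly T-like cells gave 192 against 84 CPM (0.439, 0.391 to 0.492). B-like cells had 55.4 against 31.2 CPM (0.564, 0.477 to 0.665) and plasmacytoid dendritic-like cells 243 against 155 CPM (0.637, 0.541 to 0.75), where the log2 ratio of -0.65 was -0.01 in thinned cells. NK- or ILC1-like cells, where it was highest in both libraries, had 445 against 375 CPM (0.843, 0.812 to 0.875). Neutrophil-like and conventional dendritic-like cells were also within 1.5-fold, at 0.737 (0.589 to 0.921) and 0.793 (0.707 to 0.889), but the cluster of neutrophil-like cells gave 0.51 (0.384 to 0.671) and thinned conventional dendritic-like cells a log2 ratio of -0.68. In classical monocyte-like cells the log2 ratio was 0.32 (0.10 to 0.54), but the ratio was 0.811 (0.681 to 0.963) in the cluster of mostly monocyte-like cells.

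**Figure D4:**
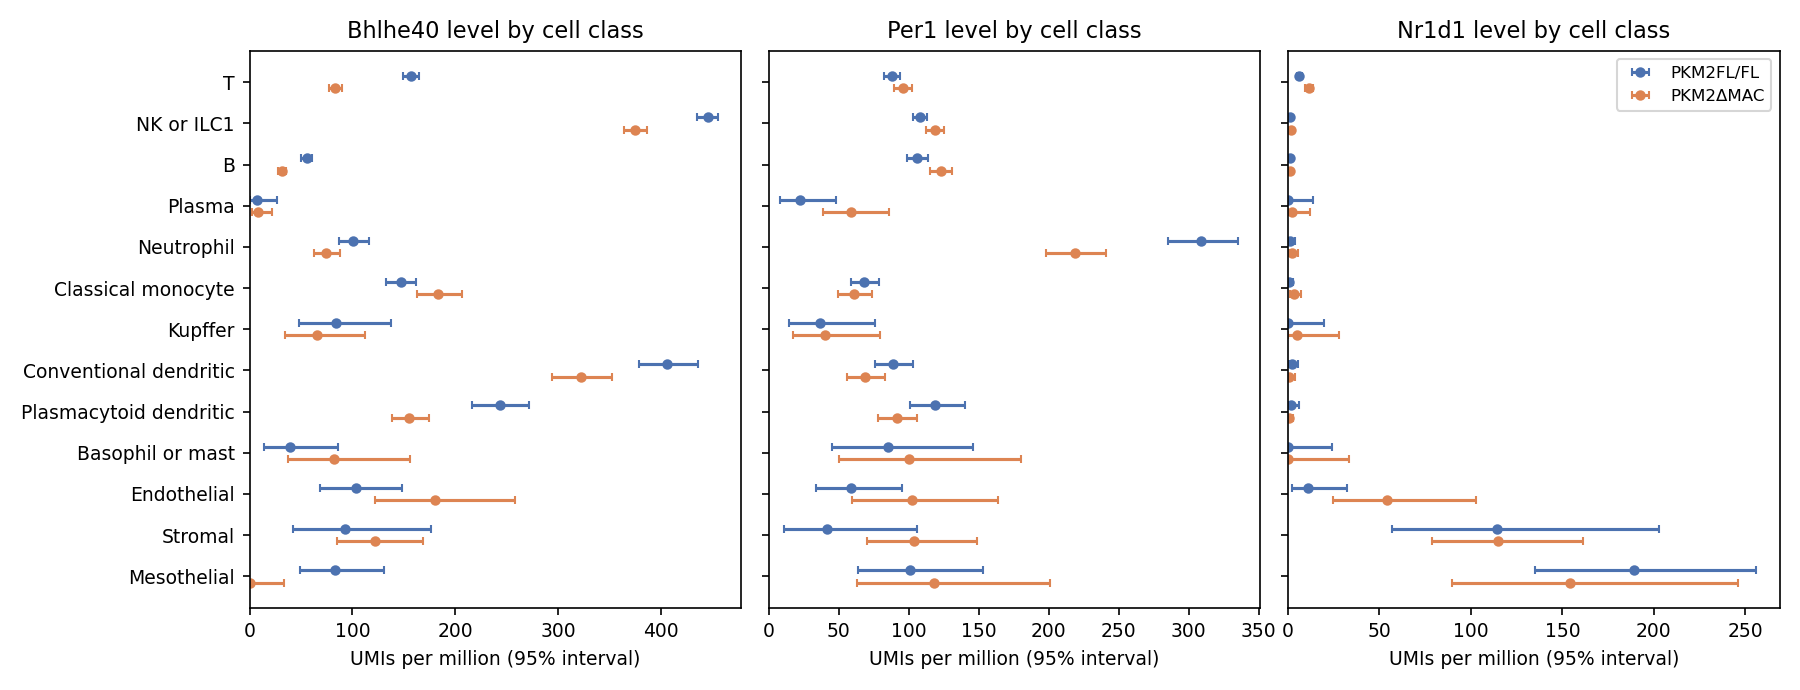
Level of Bhlhe40, Per1 and Nr1d1 in CPM by class, for each class with at least 20 cells in each library; points are the 1 library per genotype and bars exact Poisson 95% intervals. Bhlhe40 pairs separate in T, NK or ILC1, B, both dendritic and mesothelial classes (lower in PKM2ΔMAC) and in classical monocytes (higher), Per1 is highest in neutrophils in both libraries, and the Nr1d1 level is highest in stromal and mesothelial classes.

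Counted by class, the members' shares stood beside the shares of all genes measured there. In T-like cells 2 of 9 members were lower and 1 higher, against 10.7% and 2.53% of genes. In NK- or ILC1-like cells 1 of 9 was lower and 0 higher (5.62% and 2.61% of genes), and in B-like cells 2 of 8 were lower and 0 higher (6.39% and 2.88%). Each lower member in these 3 classes was Cirbp or Bhlhe40. Neutrophil-like cells had 1 of 5 lower and 1 higher (26.4% and 2.02%), monocyte-like cells 1 of 4 lower and 0 higher (8.05% and 4.84%), and Kupffer-like cells 0 of 2 in either direction (10.2% and 9.67%). Conventional dendritic-like cells had 1 of 4 lower and 0 higher (10.9% and 4.75%) and plasmacytoid dendritic-like cells 2 of 5 lower and 0 higher (8.15% and 6.5%). In the CD8 gates, naive-like cells had 1 of 8 lower and 2 higher (6.75% and 3.17%) and activated-like cells 1 of 5 lower and 0 higher (9.29% and 7.07%). Over the 8 main classes, 10 of 46 pairs of a member and a class were lower, 7 of them Cirbp and 3 Bhlhe40, and 2 were higher, Nr1d1 in T-like and Per2 in neutrophil-like cells. Because Cirbp chose the set, nothing is read from these lower counts.

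**Figure D5:**
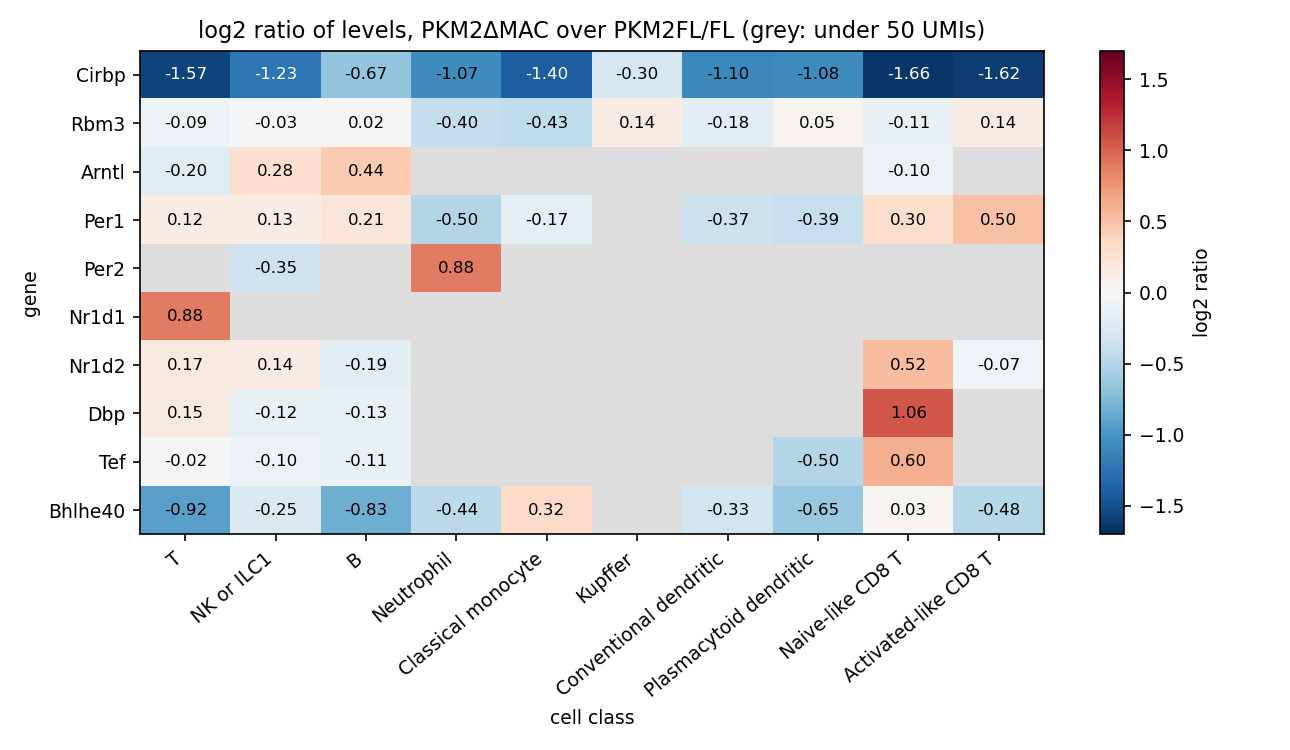
The log2 ratio of each member's level, PKM2ΔMAC over PKM2FL/FL, in the 8 compared classes and 2 CD8 gates; blue is lower and red higher in PKM2ΔMAC, and grey marks under 50 UMIs in the class. The Cirbp row is blue in every column, from -1.66 to -0.30, the Rbm3 row stays between -0.43 and 0.14, and the clock genes show both signs.

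The rest of the clock was read from lists, with counts over pairs of a gene and a compared class. Between 5.62% and 26.4% of all genes were lower in a compared class and between 2.02% and 9.67% higher, and these shares stand beside every list count. Of 16 pairs among the cold-inducible proteins 7 were lower, all of them Cirbp. Of 9 pairs among clock activators, none was past 1.5-fold. Of 25 pairs among the repressors (Per, Cry and Ciart), 0 were lower and 4 higher: Per2 in neutrophil-like cells, Ciart in T-like cells (45 and 77 UMIs, 1.92, 1.31 to 2.83), and Cry1 in NK- or ILC1-like (339 and 369 UMIs, 1.63, 1.4 to 1.9) and monocyte-like cells (1.54, 1 to 2.35). Of 16 pairs among the PAR-bZIP factors and Nfil3, 1 was lower, Nfil3 in neutrophil-like cells (0.492, 0.406 to 0.595), and 1 higher, Hlf in NK- or ILC1-like cells (1.79, 1.28 to 2.51). Among the kinases and ubiquitin ligases that set the life span of PER and CRY, 0 pairs were higher, and those that counted as lower included Btrc in plasmacytoid dendritic-like (0.55, 0.339 to 0.888) and Fbxw11 in neutrophil-like cells (0.598, 0.321 to 1.08). Among the REV-ERB and ROR receptors, Rora was lower in plasmacytoid dendritic-like cells (0.513, 0.288 to 0.904), beside the higher Nr1d1 in T-like cells. Of 8 pairs of the DEC repressors, the 3 lower ones were Bhlhe40 and the higher one was Bhlhe41, its close relative, in B-like cells (75 and 105 UMIs, 1.51, 1.12 to 2.06).

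The clock output list, the genes closest to the question, held 52 measured pairs, of which 2 were lower, 3 higher and 47 within 1.5-fold. Its median log2 ratio was -0.03 in T-like, 0.03 in NK- or ILC1-like, -0.07 in B-like and 0.23 in monocyte-like cells, beside -0.15, -0.07, -0.07 and -0.05 for all genes. In neutrophil-like cells it was -0.33, in conventional dendritic-like 0.17 and in plasmacytoid dendritic-like cells -0.10, beside -0.32, -0.09 and -0.02. The value farthest from that of all genes was in Kupffer-like cells, 0.51 against -0.02, over only 3 measured genes, each within 1.5-fold. Usp2, a clock-driven ubiquitin protease, was lower in NK- or ILC1-like (80 and 28 UMIs, 0.525, 0.328 to 0.816) and plasmacytoid dendritic-like cells (0.663, 0.397 to 1.11) and higher in monocyte-like cells (1.6, 0.904 to 2.81). Tspan4 was higher in T-like cells (65 and 135 UMIs, 2.33, 1.72 to 3.18), and Rhob in plasmacytoid dendritic-like cells (2.01, 1.54 to 2.65). The output genes Tsc22d3, Klf9 and Nampt were within 1.5-fold in every compared class that measured them. In T-like cells Tsc22d3 had 371 against 382 CPM (1.03, 0.982 to 1.08), Klf9 41.7 against 42.3 CPM (1.01, 0.882 to 1.17) and Nampt 27.3 against 27.2 CPM (0.999, 0.838 to 1.19).

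Lists that bear on how cells were treated or what else they respond to were read beside Cirbp. Of 149 pairs among CLK kinases and SR splicing proteins, which set temperature-dependent splicing, 7 were lower and 2 higher, Srsf11 (2.03, 1.09 to 3.94) and Srsf3 (1.64, 1.12 to 2.42) in Kupffer-like cells, with 0 of 20 past 1.5-fold in each of T-like, NK- or ILC1-like and B-like cells. Of 105 heat shock pairs, 8 were lower and 2 higher, Hsf1 in conventional dendritic-like (1.97, 1.12 to 3.54) and Hspb1 in plasmacytoid dendritic-like cells (2 and 48 UMIs, 15.9, 4.17 to 135). The 48 Hspb1 UMIs came from 3 cells, and in conventional dendritic-like cells Hspb1 was lower, with 61 UMIs from 7 cells and 8 UMIs from 2 cells (0.168, 0.0692 to 0.351). Of the lower ones 4 were in neutrophil-like cells, out of 12 measured there, where 26.4% of all genes were lower. Of 108 immediate early pairs, 11 were lower and 7 higher, and Fosb was lower in 4 classes, with a ratio of 0.63 (0.595 to 0.666) in B-like cells, but higher in Kupffer-like cells (1.65, 1.06 to 2.62). Of 65 glucocorticoid-responsive pairs, 10 were lower and 10 higher. Fkbp5, a co-chaperone of the glucocorticoid receptor, was higher in all 7 compared classes that measured it, with ratios from 1.66 (1.45 to 1.91) in T-like to 3.9 (2.71 to 5.72) in conventional dendritic-like cells. Nfkbia, the inhibitor of NF-kB, was lower in 7 of 8, from 0.363 (0.326 to 0.404) in plasmacytoid dendritic-like to 0.652 (0.615 to 0.691) in conventional dendritic-like cells.

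RNA of other cells also differed between the libraries. Haemoglobin transcripts, 4 genes summed, went from 50.9 to 8.68 CPM in T-like and from 255 to 128 CPM in B-like cells. In NK- or ILC1-like cells they went from 47.7 to 135 CPM, in a gate of 2883 and 2058 cells. There Hba-a1 had 332 UMIs from 83 cells and 444 UMIs from 34 cells. Hbb-bs had 225 UMIs from 72 cells and 716 UMIs from 65 cells. Hba-a1, Hba-a2 and Hbb-bs counted as lower in T-like, B-like and Kupffer-like cells. Of 16 erythroid pairs 10 were lower and 4 higher, the latter all in NK- or ILC1-like cells. The 8 hepatocyte pairs were all Trf, and 1 was lower, in T-like cells (0.64, 0.387 to 1.04). Hepatocyte transcripts, 10 genes summed, were 9.02 and 8.57 CPM in T-like, 44.7 and 46 CPM in NK- or ILC1-like and 14.4 and 9.04 CPM in B-like cells. Most of the NK- or ILC1-like sum was Trf, at 39.3 and 43.2 CPM, so it says little about the other list genes. Alb had 32 and 10 UMIs in that gate (0.468, 0.205 to 0.976), but 9 and 11 UMIs in T-like cells (1.37, 0.516 to 3.74). Trf also read 237 and 201 CPM in classical monocyte-like cells. The part of free RNA in the members' ratios was not tested.

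The order of levels among classes also differed for Cirbp. In PKM2FL/FL it ran from stromal-like (330 CPM) and mesothelial-like cells (317 CPM) through neutrophil-like, plasmacytoid dendritic-like and B-like cells to classical monocyte-like cells (136 CPM), and the only neighbours with separate intervals were NK- or ILC1-like above T-like cells. In PKM2ΔMAC mesothelial-like (290 CPM), stromal-like (261 CPM) and endothelial-like cells (216 CPM) led, and classical monocyte-like cells (51.4 CPM) again came last. There NK- or ILC1-like cells lay apart from conventional dendritic-like cells below them, and T-like from monocyte-like cells. The genes whose levels most resembled those of Cirbp over 26 points, 13 classes in each of the same 2 libraries, were Fkbp8 (r = 0.629), Malat1 (0.602), Rsrp1 (0.588), Txnip (0.586) and Son (0.571).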

How the data were processed

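The authors deposited raw UMI counts of each gene in each cell barcode. Per the file headers these come from Cell Ranger 6.0.0, and the submitters' processing notes list mm10 as build and Seurat 4.3.0 with no role. Barcodes had at least 502 UMIs, in totals of 54519921 and 43134027. Here barcodes with at least 300 genes and under 20% mitochondrial UMIs were kept (64 and 72 failed), and 461 and 330 doublets called by Scrublet (scanpy 1.11.5) were removed. A cell joined the class with most of its 8 listed markers detected, needing 3 or more and a lead of 1; for T cells only 5 of the 8 symbols are used. Raw UMIs were summed per class and library and divided by the class total. Intervals are exact Poisson, exact conditional (ratios) and Clopper-Pearson (shares), and cover counting error only. No count model was fitted, with 1 library per genotype. Leiden clusters at resolution 1 were made on 2000 variable genes without the 10 members. The ratio step was tested on simulated data.

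The members, lists and tests were chosen with earlier results of these data known. Named were all 10 members, up to 3 genes per list and direction past 1.5-fold in 3 or more classes, the 5 genes most like Cirbp and the 5 with the lowest and highest median ratio; other names were chosen after their values were seen. Gene positions are those of GENCODE M21 on GRCm38. Alternatives changed the doublet, marker and mitochondrial rules, depth, weighting, centring, classes, fold and minimum UMIs. Some list genes are not reported here.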

Additional observations from a re-analysis of the deposited data

Results flagged for a closer look

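The members Bhlhe40, Per1 and Rbm3 had counting intervals on opposite sides of equal levels in a pair of classes; no difference between classes was tested, since each class has 1 library per genotype. Bhlhe40 had a log2 ratio of -0.92 in T-like and 0.32 in classical monocyte-like cells. The monocyte value was -0.30 in Leiden clusters, 0.80 in cells thinned to 1000 UMIs and 0.12 with doublets kept. Per1 had -0.50 in neutrophil-like cells and 0.50 in activated-like CD8 T cells, with 603 and 410 UMIs in the first and 107 and 104 in the second. Rbm3 had -0.43 in classical monocyte-like cells and 0.14 in activated-like CD8 T cells, and the latter was -0.21 with thinning and 0.01 when the CPM of single cells were averaged.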

How the results depend on the processing

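Across the alternatives, no Cirbp value changed direction: 85 stayed within the counting interval of the reported value and 4 moved outside it. Those were -1.42 in T-like and -0.75 in neutrophil-like cells when centred on the class median, and -0.62 in classical monocyte-like and -0.54 in plasmacytoid dendritic-like cells when thinned to 1000 UMIs. Of 46 pairs of a member and a class, 10 counted as lower and 2 as higher. At the looser fold threshold tried 19 were lower, and at 2-fold 6 were lower and 0 higher. With a minimum of 1 UMI 79 pairs were measured, of which 22 were lower and 9 higher. Shares of all genes at these changed cutoffs are not given here. Counted in the same way, over classes and settings, 12 Bhlhe40 values moved and 68 stayed. For Rbm3 10 moved and 79 stayed, and for Per1 6 moved and 74 stayed. The cause was not tested. Leaving out the 17 shared barcodes, and leaving T marker cells out of the NK or ILC1 gate, were chosen after seeing the data and moved no value outside its interval. No paired analysis was possible because there is 1 library per genotype, and no replicate can be left out. Thinning also gave log2 ratios of -1.59 for Per2 and -0.77 for Dbp in NK- or ILC1-like cells, and of 0.62 and 2.71 for Tef in T-like and naive-like CD8 cells. Thinned values rest on fewer UMIs and are given without intervals. After thinning 32 pairs of a member and a main class held 50 UMIs, beside 46 before it, so some of these values may be counting error. Depth limits Arntl, Per2, Nr1d1, Nr1d2 and Dbp, which reached 50 UMIs in 3 or fewer of the 8 compared classes.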

Other observations

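Among the 801 genes ranked over the 8 compared classes, those that stood lowest after Cirbp were 3 NF-kB or inflammatory genes and 1 actin-linked gene. Tnfaip3, an inhibitor of NF-kB signalling, had a median log2 ratio of -0.96, the neutrophil chemokine Cxcl2 -0.93, Nfkbia -0.88 and Marcksl1 -0.77. Cxcl2 was not lower everywhere, with log2 ratios of 1.85 in plasmacytoid and -0.05 in conventional dendritic-like cells. At the other end, Tmsb4x, which binds actin monomers, stood at 1.03 and was higher in 8 of 8 classes. The chemokines Ccl4 (0.91) and Ccl3 (0.70) were each higher in 7 classes, and Crip1 (0.77) and the neutrophil alarmin S100a9 (0.66) in 5. In neutrophil-like cells Ccl3 was lower, with a log2 ratio of -0.60, and Ccl4 stood at -0.22. Over the 26 points of class and library, Tmsb4x had r = -0.607 with Cirbp, as a description of points that share 2 libraries.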
